A study of Mus musculus with 4 samples.

Results

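The 9 genes described here encode proteins of the tight junction and of the apical polarity machinery of epithelial cells. They were chosen by name as Cldn1, Cldn4, Cldn7, Ocln, F11r, Tjp1, Cgn, Crb3 and Pard6b, out of 31729 genes with a named value in the files. Of these 9 genes, 7 passed the filter on low values and were tested among 11973 genes, and Cldn7 and Cgn did not. The libraries came from tumour stem cells of squamous cell carcinomas that arose in mouse skin, sorted on the surface proteins integrin alpha6 and CD44 after cells of other lineages were removed, and split by a fluorescent mCherry reporter of TGF-beta signalling. The reporter negative group (labelled as lacking TGF-beta signalling) and the reporter positive group (labelled as having it) each held 2 libraries of mRNA, 1 from each of experiments 1 and 2. Both groups carried TetO-Hras + LV-rtTA3-TGF-beta reporter as genotype, on the strain given as C57BL/6 X FBV, so the Hras oncogene under a TetO promoter was common to all 4 libraries. The labels used here do not say which animals were pooled, their age, or whether animals differed between experiments. The p-values therefore speak of the scatter among the 4 libraries, which may be technical.

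Tight junctions seal the space between neighbouring epithelial cells. Claudins form the strands, occludin and the immunoglobulin-type protein F11r (JAM-A) sit beside them, and scaffolds such as Tjp1 (ZO-1) and cingulin tie the strands to actin. The Crumbs and Par complexes, to which Crb3 and Pard6b belong, mark the apical side and place the junction. In skin, the working barrier lies in the granular layer of the epidermis, while Cldn1 is also made in the layers below it, and TGF-beta is best known in carcinomas for lowering epithelial junction genes through repressors of the Snail family.

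The promoters of the pair of members that rose, Cldn4 and Crb3, are shown beside that of Cldn1, a claudin with lower values in the positive libraries. Each runs 5′ to 3′ from 250 bases before the RefSeq start site to 50 bases after it, on build GRCm38.p6: chr5:134946885-134947184 on the minus strand for Cldn4, chr17:57061951-57062250 on the plus strand for Crb3, and chr16:26371790-26372089 on the minus strand for Cldn1. Capitals mark the E-box bound by Snail-family and ZEB repressors, searched as CAGGTG on both strands (CACCTG on the other strand).
Cldn4: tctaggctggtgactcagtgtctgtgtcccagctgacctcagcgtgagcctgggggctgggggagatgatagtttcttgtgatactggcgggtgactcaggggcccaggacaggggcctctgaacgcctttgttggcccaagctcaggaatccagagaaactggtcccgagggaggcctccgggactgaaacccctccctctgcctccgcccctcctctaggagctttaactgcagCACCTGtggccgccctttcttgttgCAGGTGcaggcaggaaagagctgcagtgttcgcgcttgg
Crb3: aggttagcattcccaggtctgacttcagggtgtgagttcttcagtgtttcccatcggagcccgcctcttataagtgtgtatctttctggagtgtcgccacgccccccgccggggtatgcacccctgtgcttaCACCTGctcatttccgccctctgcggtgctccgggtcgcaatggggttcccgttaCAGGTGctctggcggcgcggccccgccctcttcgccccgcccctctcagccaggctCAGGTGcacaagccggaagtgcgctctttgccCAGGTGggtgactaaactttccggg
Cldn1: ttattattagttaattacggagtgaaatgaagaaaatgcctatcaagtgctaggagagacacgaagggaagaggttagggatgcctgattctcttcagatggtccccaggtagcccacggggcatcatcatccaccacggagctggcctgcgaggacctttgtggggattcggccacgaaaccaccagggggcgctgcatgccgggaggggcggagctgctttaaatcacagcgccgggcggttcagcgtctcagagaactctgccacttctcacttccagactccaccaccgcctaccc
The Cldn4 promoter held 2 E-boxes, beginning 14 bases before and 12 bases after the start site, so that they flank it. The Crb3 promoter shown held 4, beginning 118, 63 and 7 bases before the start site and 26 bases after it. RefSeq lists 2 start sites for Crb3. From the other, the same 4 E-boxes begin 148, 93, 37 and 5 bases before the start. The Cldn1 promoter held none. An E-box was present in 20.2% of 32851 RefSeq promoters of the same length, 2 or more in 2.88%, and 4 or more in 0.0548%. RefSeq lists 12 promoters for the 9 members. At least 1 E-box lay in 8 of these promoters and in 6 of the 9 members, and the members without one were Cldn1, Tjp1 and Cgn. The 2 Crb3 promoters overlap and hold the same 4 E-boxes, and the 2 Ocln promoters overlap in part. The shares above are per promoter and do not match the count of members. No enrichment is read from either count. The Pard6b promoter and a promoter each of Cldn7 and Ocln also held 2. Of these genes, Pard6b and Ocln did not pass the test described below, and Cldn7 was not tested. Among other motifs, the AP-1 site TGANTCA lay in 7.81% of all promoters and in those of Cldn4 (2 matches, beginning 240 and 158 bases before the start) and F11r. The grainyhead site AACCNGTT lay in 2.09% of promoters and, among members, in that of Cgn. The palindromic Smad site GTCTAGAC lay in 0.213% and in no member. These matches describe letters in a window, and no binding was measured.

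Of the 7 tested members, 2 rose in the reporter positive libraries, 0 fell, and 5 did not pass the test. The claudin gene Cldn4 was 6.53-fold higher and the Crumbs gene Crb3 3.33-fold higher, as ratios of mean FPKM (fragments scaled by transcript length and library depth, the unit the authors deposited). Across all tested genes the same test called 5.4% (2.68% higher and 2.71% lower), by limma on log2(FPKM + 1) with a Benjamini-Hochberg adjusted p under 0.05. The higher against lower split of all called genes was 321 against 325 with the values as deposited, 424 against 200 with median-of-ratios scaling and 422 against 256 with quantile normalization, and the members' split stayed 2 against 0 under each. Without any 1 of the 4 libraries neither member passed (adjusted p from 0.0515 to 0.0933 for Cldn4 and from 0.0548 to 0.116 for Crb3), with their direction kept. The median change of the 7 tested members was 0.08 on the log2 scale against -0.18 for all tested genes. Median-of-ratios scaling moved the median of all genes to 0.01. Both positive libraries lay above both negative ones for 4 of the 7 tested members and below them for 1, against 15.2% and 42.7% of all tested genes. The ratios below are of FPKM, and the fold changes are differences of log2(FPKM + 1), which are smaller than the log2 ratio for low genes.

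The libraries had similar depth, between 3.13 and 3.75 aligned gigabases, estimated as the median ratio of coverage to FPKM among long transcripts. Markers of other cells also moved between the fractions. The sum over 9 fibroblast markers was 132 and 265 FPKM in the negative libraries and 18.1 and 40.5 in the positive ones, with 2 genes called lower (Thy1 and Postn). Most of that sum in the negative libraries was Postn. Col1a1 was also lower in both positive libraries (7.56 and 10.01 against 3.73 and 5.97 FPKM). So were Col1a2 (7.87 and 11.45 against 3.45 and 6.31 FPKM) and, at low levels, Pdgfrb (0.298 and 0.503 against 0.0268 and 0.171 FPKM). With the experiment as a block, which called 11.9% of all tested genes, Col1a2 passed as lower (adjusted p = 0.0462). Col3a1, Dcn, Lum and the defining fibroblast gene Pdgfra overlapped between the groups. Pdgfra lay between 0.154 and 0.444 FPKM in all 4 libraries. The sum over 7 endothelial markers, 6 of them at 1 FPKM or more in some library, was 6.15 and 15.2 against 3.61 and 3.98. The sum over 7 leukocyte markers was 31.1 and 48.8 against 15.3 and 30.7, and most of it was Cd74 (25.6 and 42.0 against 8.39 and 17.5 FPKM). The macrophage gene Cd68 went the other way (2.88 and 2.44 against 4.12 and 4.69 FPKM), and Ptprc, which encodes the pan-leukocyte protein CD45, stayed between 0.150 and 0.362. Melanocyte markers summed to at most 1.17 FPKM in any library with Pmel at 0, and sebocyte markers to between 3.39 and 3.89 with Scd3 at 0. Of 9 keratinocyte markers listed, Krt5 and Krt14 had no named value. The 7 with a value summed to 3813 and 3708 FPKM in the negative libraries and 6051 and 6173 in the positive ones, and most of that sum was Sfn and Perp. Sfn and Perp lay higher in both positive libraries (Sfn at 1648 and 1521 against 2883 and 2946 FPKM), while Itga6 (331 and 410 against 181 and 205 FPKM), Trp63 (102 and 128 against 72.0 and 73.8 FPKM) and Epcam (45.9 and 51.0 against 29.4 and 25.5 FPKM) lay lower in both. None of the 7 passed the test. With the experiment as a block (11.9% of all tested genes called), Sfn and Perp passed as higher (adjusted p = 0.0195 and 0.0190). In the same fit Itga6, Trp63 and Epcam passed as lower (adjusted p = 0.0156, 0.0446 and 0.0376). Itga6 encodes the integrin used in the sort. Cd44, which encodes the other sort protein, overlapped between the groups (81.5 and 112 against 88.0 and 128 FPKM), as did Cdh1. Endothelial cells and some leukocytes also make Tjp1 and F11r, and the part of these cells in the values of those members was not tested. In bulk libraries, fewer cells of a type and less RNA per cell cannot be told apart.

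**Figure D1:**
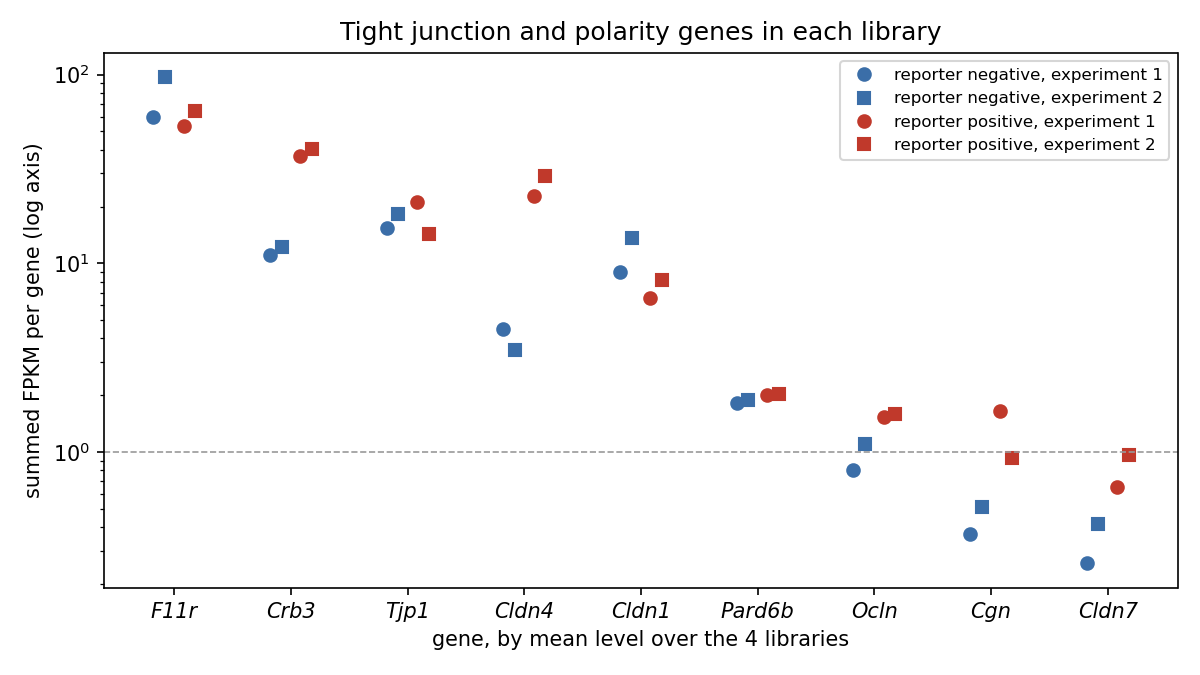
Level of each of the 9 members in each of the 4 libraries, in FPKM on a log axis, with reporter negative and reporter positive libraries marked separately for experiments 1 and 2 and a dashed line at 1 FPKM. Cldn4 and Crb3 separate widely, from 3.47 to 28.9 FPKM and from 11.04 to 40.2 FPKM, while Pard6b stays between 1.82 and 2.019.

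Among the claudins, Cldn4 encodes a strand protein of tight epithelia that in the epidermis belongs mainly to the upper, differentiating layers (ENSMUSG00000047501, mm9 chromosome 5, 135420996 to 135422804, minus strand, a single exon). Its level was 4.46 and 3.47 FPKM in negative libraries 1 and 2, and 22.9 and 28.9 FPKM in positive libraries 1 and 2. Both positive libraries were several-fold above both negative ones, with no overlap. The means were 3.96 ± 0.704 and 25.9 ± 4.25 FPKM (SD, n = 2 each), and the ratio was 5.13 in experiment 1 and 8.33 in experiment 2. The log2 fold change was 2.43 ± 0.21 (SE; limma adjusted p = 0.0137). A total of 83 of the 11973 tested genes had a larger fitted rise. Because the gene has 1 annotated form of 1809 bases, its value does not rest on how forms were assembled. The read depth per aligned gigabase, computed from the deposited coverage, was 4.48, 3.46, 22.9 and 28.8 in the same order. For a gene with 1 form this restates the FPKM by construction and is not a second measure. The Cufflinks interval of the positive library of experiment 2, 25.1 to 28.4 FPKM, did not hold that library's own value. The negative intervals, 3.60 to 5.15 and 2.78 to 3.96, lay far below both positive ones.

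Cldn1 encodes the claudin without which the mouse epidermal barrier leaks (ENSMUSG00000022512, chromosome 16, 26356728 to 26371927, minus strand). It was at 9.01 and 13.6 FPKM in the negative libraries and 6.52 and 8.11 FPKM in the positive ones. Both positive libraries lay below both negative ones, though the gap between 8.11 and 9.01 was small. The means were 11.3 ± 3.23 and 7.31 ± 1.12 FPKM, and the log2 fold change of -0.55 ± 0.25 did not pass the test (adjusted p = 0.253). Cldn7, a claudin found along the lateral membrane of many epithelia (ENSMUSG00000018569, chromosome 11, 69778281 to 69781387, plus strand), stayed under 1 FPKM and was not tested. Its values were 0.257 and 0.412 FPKM in the negative libraries and 0.652 and 0.963 FPKM in the positive ones. The positive libraries were the higher ones in both experiments, at low levels.

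The make-up of the claudins differed between the fractions. The claudin-domain gene Cldnd1 (56.8 and 61.6 FPKM against 60.1 and 60.5) is not counted as a claudin in the sums that follow. Over the 13 claudin genes of the gene lists that have a value, the summed level was 21.3 and 28.2 FPKM in the negative libraries and 43.5 and 54.3 FPKM in the positive ones. Cldn1 held 42.3% and 48.2% of that sum in the negative libraries and 15.0% and 14.9% in the positive ones. Cldn4 held 21.0% and 12.3% in the negative libraries and 52.6% and 53.2% in the positive ones. Thus Cldn1 was the most abundant of the 13 claudins in both negative libraries and Cldn4 in both positive ones. The lists leave out Cldn5, an endothelial claudin (0.639 and 1.501 against 0.520 and 0.341 FPKM), and Cldn17 (0.539 and 0.240 against 1.54 and 4.59 FPKM, log2 fold change 1.45 ± 0.42, adjusted p = 0.121). Over all 32 claudin genes named in the files, 20 of them above 0 in some library, Cldn4 held 19.7% and 11.4% in the negative libraries and 50.2% and 48.7% in the positive ones. Cldn1 held 39.7% and 44.5% in the negative libraries and 14.3% and 13.7% in the positive ones, and the most abundant claudin of each library stayed the same. The level of Cldn4 over that of Cldn1 was 0.495 and 0.255 in the negative libraries and 3.51 and 3.56 in the positive ones. Cldn7 held between 1.21% and 1.77% in every library. Cldn12, a claudin with an atypical cytoplasmic tail, held 27.2% and 29.8% in the negative libraries and 16.6% and 13.3% in the positive ones, while its level overlapped between the groups (5.79 and 8.40 FPKM against 7.20 and 7.22). Shares are not independent of each other, since the rise of Cldn4 lowers the shares of the rest, and no test was run on them.

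**Figure D2:**
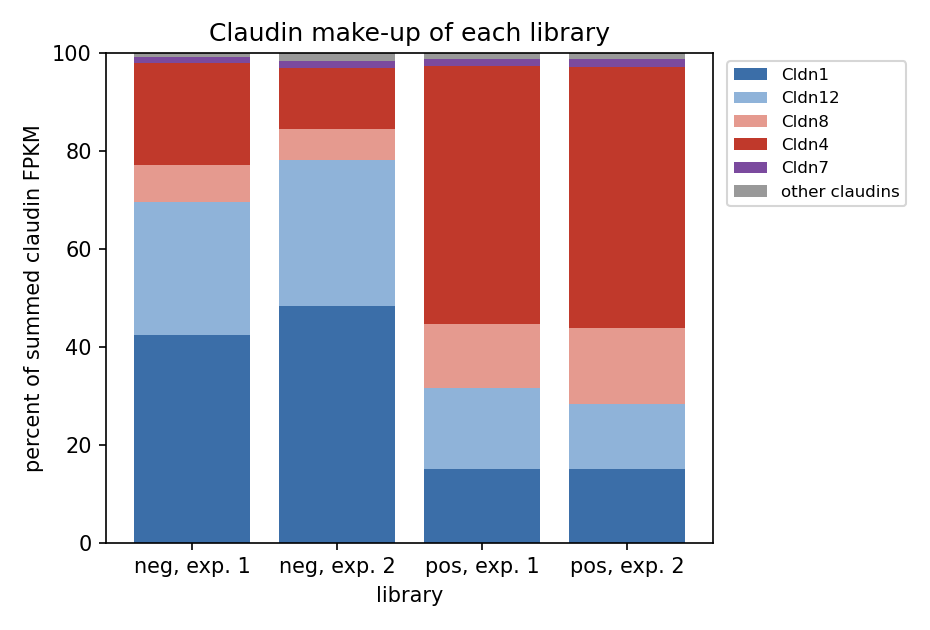
Share of the summed claudin FPKM held by Cldn1, Cldn4, Cldn7, Cldn8, Cldn12 and the remaining claudins in each of the 4 libraries, as stacked bars from 0 to all of the sum over the 13 listed claudins. Cldn4 takes 52.6% and 53.2% in the reporter positive libraries against 21.0% and 12.3% in the negative ones, and Cldn1 the reverse order.

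Beside the claudins in the strand, Ocln encodes occludin (ENSMUSG00000021638, chromosome 13, 101266462 to 101322673, minus strand). It was at 0.805 and 1.11 FPKM in the negative libraries and 1.54 and 1.60 FPKM in the positive ones. The groups did not overlap, with means of 0.956 ± 0.214 and 1.57 ± 0.0410 FPKM. The log2 fold change of 0.40 ± 0.20 did not pass the test (adjusted p = 0.288).

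F11r, the adhesion protein JAM-A that recruits the Par complex to young junctions, was the most abundant member in both groups (ENSMUSG00000038235, chromosome 1, 173367666 to 173394734, plus strand). Its summed level was 59.4 and 96.9 FPKM in the negative libraries and 53.7 and 64.3 FPKM in the positive ones. Negative library 2 stood above the other 3, and the groups overlapped. The means were 78.1 ± 26.5 and 58.998 ± 7.47 FPKM, with a log2 fold change of -0.36 ± 0.27 (adjusted p = 0.446). The direction depended on how the forms were summed. In the positive libraries all of F11r was on the coding form F11r-201, of 2518 bases, at 53.7 and 64.3 FPKM. In negative library 1 that form held 5.18 FPKM and a shorter form assembled from the reads, of 1738 bases, held 54.2 FPKM. In negative library 2 F11r-201 held 36.3 FPKM, an assembled form of 886 bases held 30.9 and the retained-intron form F11r-203 of 678 bases held 29.6. FPKM divides by the length of each form, so the same reads give a higher value on a shorter form. The read depth over the longest annotated form was 41.4, 53.6, 53.5 and 62.4 per aligned gigabase, in the order of negative libraries 1 and 2 and positive libraries 1 and 2. By that measure, chosen after the forms were seen, the log2 change was 0.29 (adjusted p = 0.353) and the groups again overlapped. It was 1.56 with annotated forms alone and 0.40 with the most abundant form. None of these values passed the test, and the sign of the F11r difference was not settled by these data.

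**Figure D3:**
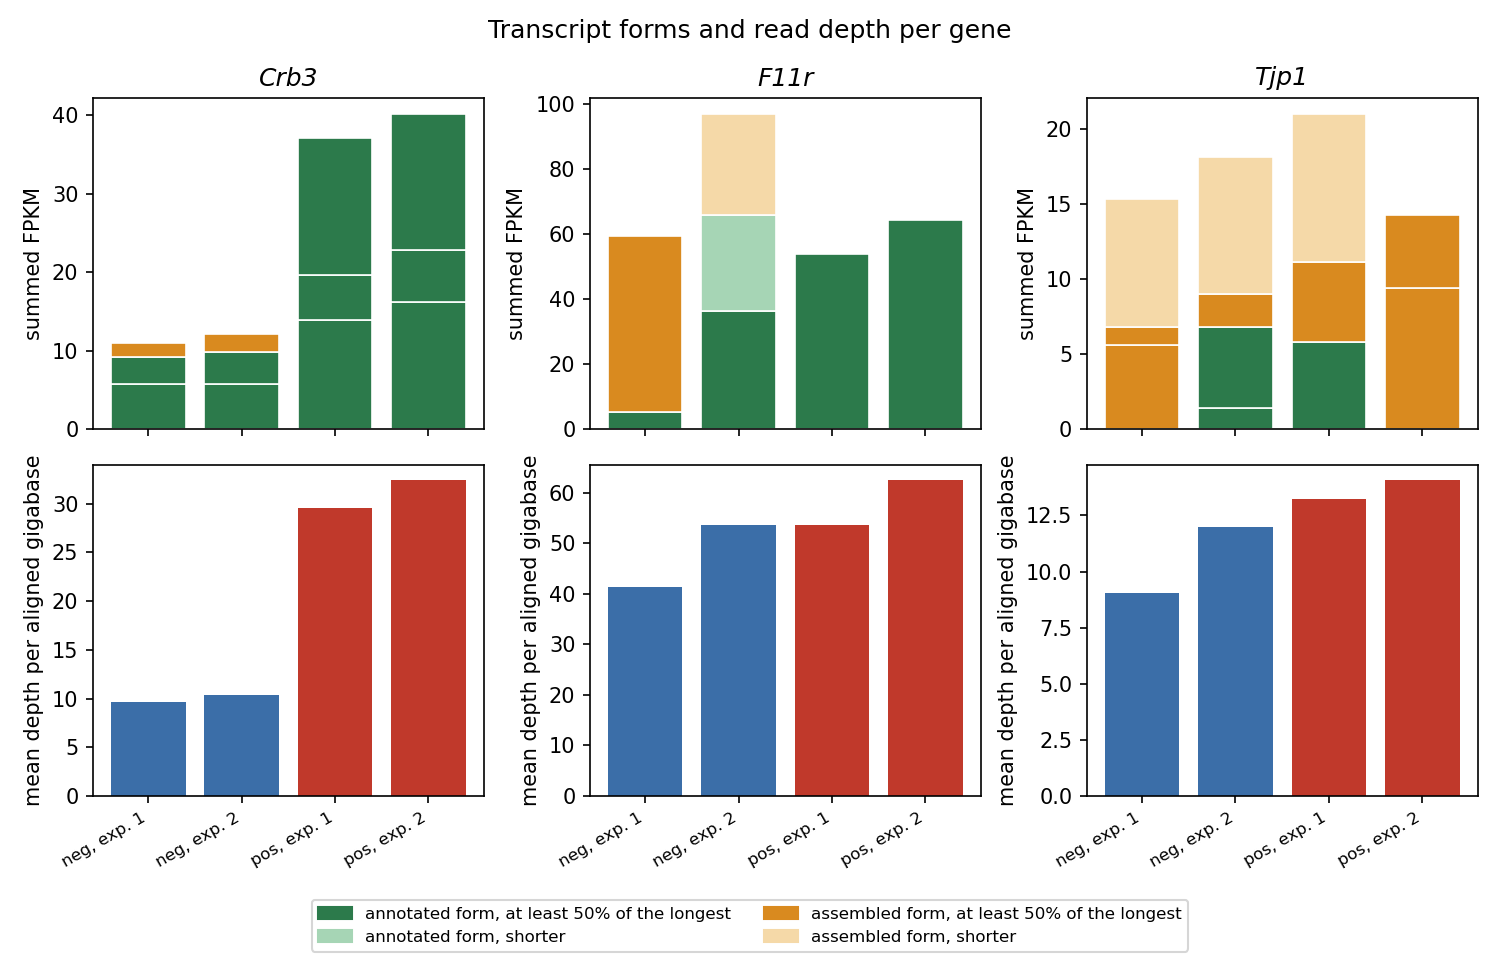
Upper panels stack the FPKM of each form of Crb3, F11r and Tjp1 in the 4 libraries (neg and pos for reporter negative and positive), colored as annotated or assembled, with forms under 50% of the longest form in pale shades. Lower panels give the mean read depth per aligned gigabase, where F11r runs from 41.4 to 62.4 while its stacked FPKM peaks at 96.9 in negative library 2.

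Among the scaffolds, Tjp1 encodes ZO-1, which binds claudins, occludin and JAM-A (ENSMUSG00000030516, chromosome 7, 72441051 to 72516125, minus strand). It was at 15.4 and 18.2 FPKM in the negative libraries and 21.0 and 14.3 FPKM in the positive ones. The experiments went in opposite directions, with log2 differences of 0.43 in experiment 1 and -0.33 in experiment 2, and the groups overlapped. The log2 fold change was 0.05 ± 0.23 (adjusted p = 0.916). Assembled forms held 100% of Tjp1 in negative library 1, 62.3% in negative library 2, 72.3% in positive library 1 and 100% in positive library 2. They included short forms of 1978 bases in negative library 1 and positive library 1, beside longer forms of up to 7099 bases. By read depth over the longest annotated form, Tjp1 was at 9.06, 12.0, 13.2 and 14.1 per aligned gigabase, in the order used for F11r. On that scale both positive libraries lay above both negative ones, as for 15.2% of all genes (43.9% lay below), and the log2 change of 0.36 ± 0.18 did not pass the test (adjusted p = 0.285).

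Cgn encodes cingulin, a plaque protein that links ZO-1 to actin and to regulators of RhoA (ENSMUSG00000068876, chromosome 3, 94464507 to 94590414, minus strand, as the span of all forms summed). It did not reach 1 FPKM in 2 libraries and was not tested. It was at 0.367 and 0.507 FPKM in the negative libraries and 1.64 and 0.933 FPKM in the positive ones, without overlap. Part of that rests on forms that run beyond the gene. A form of 2500 bases in negative library 1 (0.112 FPKM) and an assembled form of 3779 bases in positive library 1 (0.328 FPKM) reach into the neighbouring region of Tuft1. A further assembled form of 1676 bases held 0.589 FPKM in positive library 1. By read depth Cgn was at 0.279 and 0.427 per aligned gigabase in the negative libraries and 1.0002 and 0.797 in the positive ones.

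Of the polarity members, Crb3 encodes the epithelial Crumbs protein, a short membrane protein of the apical surface whose cytoplasmic tail binds Pals1 (ENSMUSG00000044279, chromosome 17, 57198528 to 57205341, plus strand). It was at 11.04 and 12.1 FPKM in the negative libraries and 37.1 and 40.2 FPKM in the positive ones. The groups were far apart and the experiments nearly alike, with ratios of 3.35 in experiment 1 and 3.31 in experiment 2. The means were 11.6 ± 0.772 and 38.6 ± 2.21 FPKM. The log2 fold change was 1.65 ± 0.15 (adjusted p = 0.0151), and 213 tested genes had a larger fitted rise. By read depth Crb3 was at 9.66, 10.3, 29.5 and 32.4 per aligned gigabase, a log2 change of 1.54 (adjusted p = 0.0131). On that measure Cldn4 and Crb3 were the 2 called members, where 5.95% of all genes tested on it were called. For Cldn4, which has 1 form, read depth restates FPKM, so its call there is no separate result.

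The rise of Crb3 was seen in each annotated form listed above 0 in all 4 libraries. Crb3-202, of 1206 bases, was at 5.81 and 5.76 FPKM in the negative libraries and 14.0 and 16.3 FPKM in the positive ones, a ratio of means of 2.61. Crb3-205, of 778 bases, was at 3.43 and 4.03 FPKM in the negative libraries and at 17.4 FPKM in both positive ones, a ratio of 4.66. All 3 annotated forms with a value are coding. Crb3-204, of 868 bases, was listed at 0 in both negative libraries and at 5.67 and 6.55 FPKM in the positive ones. An assembled form of 1052 and 1054 bases held 1.80 and 2.35 FPKM in the negative libraries alone. The files mark Crb3-204 as fully covered by reads in the libraries where it is listed at 0, so how reads were divided among overlapping forms is uncertain. The differences between forms were not tested. Of the 69 values of member forms, 66 lay inside the interval that Cufflinks gave them, and the 3 outside were the Cldn4 value noted above and both positive values of Crb3-205.

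Pard6b encodes a Par6 scaffold that joins Cdc42 to atypical protein kinase C (ENSMUSG00000044641, chromosome 2, 167906504 to 167926703, plus strand). It was at 1.82 and 1.88 FPKM in the negative libraries and 2.001 and 2.019 FPKM in the positive ones. The positive libraries were higher by a small margin that exceeded the spread within either group (1.85 ± 0.0429 and 2.01 ± 0.0126 FPKM). The log2 fold change of 0.08 ± 0.19 did not pass the test (adjusted p = 0.831). Pard6b was a small part of the Par6 genes, between 2.71% and 3.21% of their summed FPKM, while Pard6g held between 90.7% and 93.8%.

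By level, the order of the members over all 4 libraries was F11r (mean 68.6 FPKM), Crb3 (25.1), Tjp1 (17.2), Cldn4 (14.9), Cldn1 (9.31), Pard6b (1.93), Ocln (1.26), Cgn (0.863) and Cldn7 (0.571). FPKM is a level per length, but short assembled forms add to the sums of F11r and Tjp1. In the negative libraries the order of the upper 5 by summed FPKM was F11r, Tjp1, Crb3, Cldn1 and Cldn4, and in the positive ones F11r, Crb3, Cldn4, Tjp1 and Cldn1. Neighbours in these orders overlapped for Crb3 and Cldn1 and for Cgn and Cldn7 in the negative group, and for Ocln and Cgn and for Cgn and Cldn7 in the positive group. The other neighbours did not overlap, though the lower Cldn4 value in the positive group (22.9 FPKM) was close to the higher Tjp1 value (21.0 FPKM). By mean read depth the negative order was F11r, Cldn1 (11.4 per aligned gigabase), Tjp1 (10.5), Crb3 (10.004) and Cldn4 (3.97), and the values of Cldn1, Tjp1 and Crb3 overlapped. The positive order was the same by both measures. Over all 4 libraries Cldn4 (14.9) then lay above Tjp1 (12.1), so the place of Tjp1 among its neighbours depends on the measure, while Cldn4 was below Cldn1 and Tjp1 in the negative group and above both in the positive group by either.

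The genes whose pattern over the 4 libraries was nearest to that of Cldn4, among 11503 genes above 0 in all of them, were Smtnl2, Gdpd3 and Nkpd1. Their distances, Euclidean over centred log2(FPKM + 1) values, were 0.124, 0.152 and 0.156. Nearest to Crb3 were Stx11, Abca12 and Dynap, at 0.111, 0.118 and 0.119. Abca12 is the lipid transporter of epidermal lamellar granules. Stx11 was at 2.85, 2.78, 10.8 and 11.8 FPKM, in the order of negative libraries 1 and 2 and positive libraries 1 and 2. With 4 libraries, many genes share such a step.

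Among 58 other genes of tight junctions and polarity, 37 were tested, of which 2 rose, 0 fell and 35 did not pass, with a median log2 change of -0.0043. That share lies at the background of 5.4% called among all tested genes, and nothing particular to the list is read from it. Of the 3 other genes tested in the claudin list, which holds the claudin-domain gene Cldnd1, Cldn8 was the only one to rise. It encodes a claudin best known from the kidney and was at 1.60 and 1.83 FPKM in the negative libraries and 5.72 and 8.502 FPKM in the positive ones (log2 fold change 1.56 ± 0.24, adjusted p = 0.0402). Its share of claudin FPKM was 7.52% and 6.50% in the negative libraries and 13.2% and 15.7% in the positive ones. Cldn3, a close relative of Cldn4 and its neighbour on chromosome 5, was at most at 0.103 FPKM. Magi3, a membrane-associated scaffold, was at 0.462 and 0.732 FPKM in the negative libraries and 2.68 and 2.62 FPKM in the positive ones (1.20 ± 0.20, adjusted p = 0.0469). By read depth its change of 0.88 did not pass (adjusted p = 0.0762). Both calls were lost without any 1 of the 4 libraries. Without a filter on low values both were lost too (adjusted p = 0.121 for Cldn8 and 0.105 for Magi3). The Cldn8 call was also lost with annotated transcripts alone (adjusted p = 0.110) and with the most abundant transcript (0.0570). That of Magi3 was lost with a pseudocount of 0.1 (0.0640). Magi3 was not tested with annotated transcripts alone, with the most abundant transcript or with a minimum of 5 FPKM. Cldnd1 (0.03, adjusted p = 0.916) and Cldn12 (0.04, adjusted p = 0.934) did not pass.

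Several of these genes had lower values in the positive libraries. Cxadr, an adhesion receptor of the junction, was at 17.4 and 32.7 FPKM against 6.71 and 9.15 FPKM (log2 fold change -1.50 ± 0.34, adjusted p = 0.0788). Tjap1, a Tjp-associated protein, was at 8.33 and 12.9 against 3.87 and 3.38 FPKM (-1.30 ± 0.25, adjusted p = 0.0589). Mpdz, a multi-PDZ scaffold that binds claudins, was at 3.34 and 3.68 against 1.39 and 1.34 FPKM (-0.93 ± 0.19, adjusted p = 0.0629). With the experiment as a block, which called 11.9% of all tested genes, these 3 passed as lower (adjusted p = 0.0175, 0.0390 and 0.0493), and the list's count became 2 higher and 3 lower. Neither the tricellular and MARVEL proteins Lsr (0.24), Marveld2 (-0.01) and Marveld3 (-0.31) nor the strand protein Jam2 (0.06) passed, with adjusted p between 0.341 and 0.989.

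The partners of Crb3 and Pard6b did not pass the test. In the Crumbs complex, log2 fold changes were 0.18 for Patj, 0.08 for Lin7c and -0.0043 for Mpp5 (Pals1), with adjusted p of 0.633, 0.872 and 0.993. In the Par complex they were -0.33 for the kinase Prkci, 0.20 for Pard3 and 0.19 for Pard6g, with adjusted p of 0.434, 0.480 and 0.522. Crb3 is thus the member of the Crumbs list called by the test, out of itself and 3 tested partners. Among 10 tested genes of the basolateral Scribble group none passed, with Llgl2 nearest at 8.28 and 10.8 FPKM against 18.7 and 16.5 FPKM (0.82 ± 0.20, adjusted p = 0.0846). Llgl2 passed as higher with median-of-ratios scaling (adjusted p = 0.0449) and with quantile normalization (0.0418). Dlg1 (0.23, adjusted p = 0.545) and Mark3 (-0.17, adjusted p = 0.587) did not pass.

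**Figure D4:**
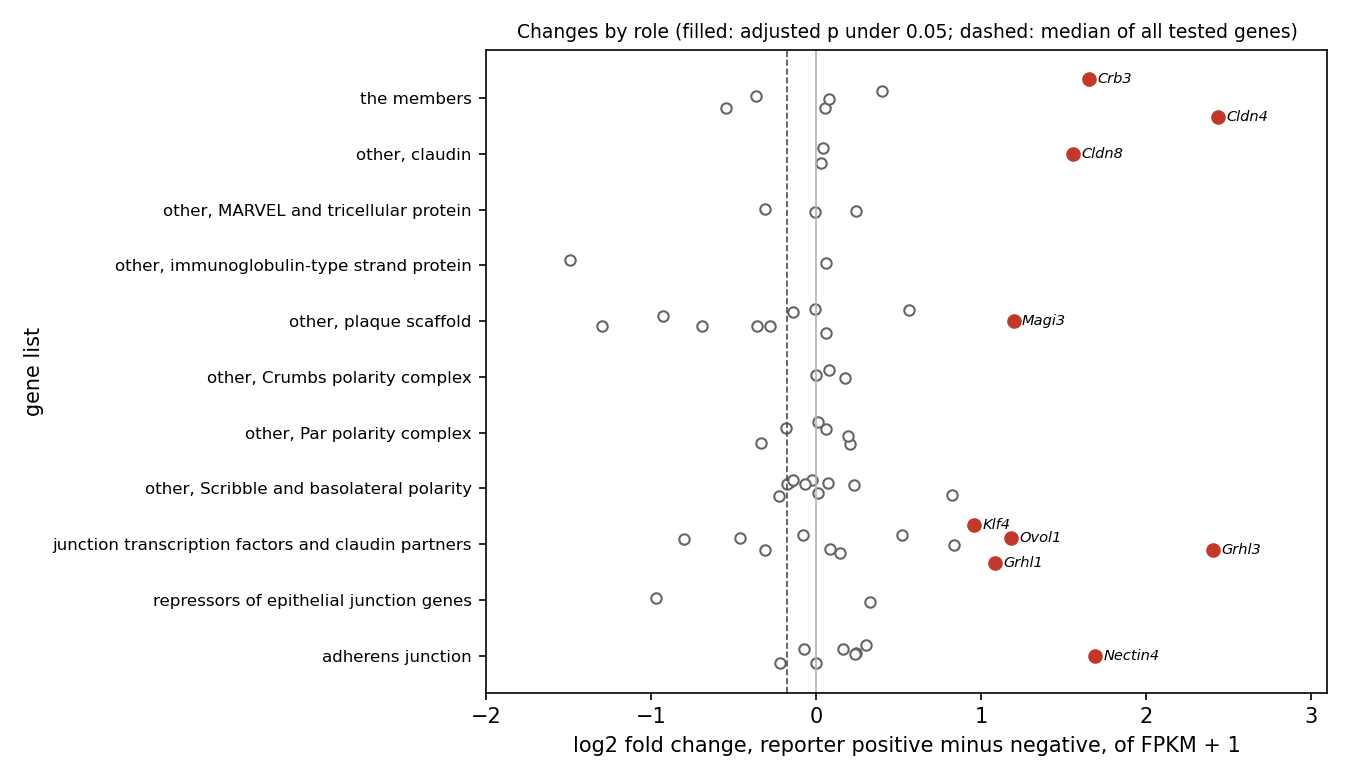
Log2 fold change of FPKM + 1, reporter positive minus negative, of each tested gene by role, with genes past an adjusted p of 0.05 filled and named, and a dashed line at the median of all tested genes (-0.18). Filled points lie to the right, from Klf4 (0.96) to Cldn4 (2.43), and 3 genes listed at 0 in a library are not drawn.

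Regulators and neighbours of the junction were read from a list of 30 genes, of which 25 were tested. Of these, 7 rose, 0 fell and 18 did not pass, and the median log2 change was 0.23. Over all tested genes 5.4% were called and the median was -0.18. The 7 include Prss8 and Nectin2, both listed at 0 in the negative libraries. With genes listed at 0 in any library left out of the fit, 22 of the list were tested, and 6 rose and 2 fell (Snai2 and Epcam). That fit called 1262 of 11504 genes. Grhl3, a grainyhead factor of epidermal barrier formation, was at 9.83 and 9.26 FPKM in the negative libraries and 46.5 and 64.5 FPKM in the positive ones (2.40 ± 0.20, adjusted p = 0.0132). Its relative Grhl1 rose by 1.08 ± 0.16 (adjusted p = 0.0366), Klf4, a factor of barrier acquisition, by 0.96 ± 0.16 (adjusted p = 0.0439), and Ovol1, an epithelial repressor of Zeb genes, by 1.18 ± 0.20 (adjusted p = 0.0471). The call for Ovol1 was lost with median-of-ratios scaling (adjusted p = 0.0505). Over all 14 alternatives to the main fit, the call was lost in 7 for Grhl1, 8 for Klf4, 10 for Ovol1 and 5 for Grhl3. Without any 1 of the 4 libraries the calls for Grhl1, Klf4 and Ovol1 were lost, and that for Grhl3 was kept only without positive library 1. Prss8, a membrane serine protease needed for epidermal tight junctions, was listed at 0 in both negative libraries, with 0 of its 3 transcripts marked as fully covered, and at 5.79 and 4.75 FPKM in the positive ones.

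Among adherens junction genes, the nectin gene Nectin4 was at 9.45 and 10.1 FPKM in the negative libraries and 30.2 and 37.7 FPKM in the positive ones (1.69 ± 0.17, adjusted p = 0.0179), a call lost without any 1 of the 4 libraries. Nectin2 was listed at 0 in both negative libraries and at 13.5 and 12.8 FPKM in the positive ones. Both of its 2 transcripts are marked as fully covered in the libraries at 0, so those zeros may be failed estimates and no fold is given for it. Nectin1 did not pass (0.30, adjusted p = 0.332). Of 6 Snail, ZEB and Twist repressors, 2 were tested and neither passed. Snai2 (Slug) was at 43.8 and 30.7 FPKM in the negative libraries and 19.0 and 17.3 FPKM in the positive ones (-0.97 ± 0.21, adjusted p = 0.0717). It passed with the experiment as a block (adjusted p = 0.0286). Any link between Snai2 and the members was not tested. Twist1 was at 1.41 and 1.22 against 1.44 and 2.43 FPKM (0.32, adjusted p = 0.462).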

How the data were processed

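RNA-seq libraries of 2 reporter negative and 2 reporter positive fractions were compared, with groups taken from the titles. The authors deposited 1 transcript table per library, with FPKM, an interval and read coverage for annotated and newly assembled transcripts. TopHat, Cufflinks and the mm9 build are named in the submitters' processing notes, with versions not given in the sources used here. No read counts were used, so no counting interval is given.

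FPKM was summed per gene over transcripts of at least 200 exonic bases. Transcripts were named by Ensembl transcript identifier through GENCODE M21, then by the gene identifier in the files, then by at least 50% exon overlap, and 84047, 5138 and 7549 of 96734 reference transcripts were named in these ways. The shorter transcripts left out held 95.1% to 98.9% of all FPKM, and 87.3% to 90.1% of the rest fell on named genes. Where 2 or more libraries reached 1 FPKM, the gene was tested in limma 3.58.1 (R 4.3.3; lmFit, eBayes with trend) on log2(FPKM + 1), without the experiment in the model. P-values were adjusted over all tested genes by the Benjamini-Hochberg method, with a threshold of 0.05. The procedure was tested on simulated data. An exact permutation of 2 against 2 libraries cannot give a p below 0.333.

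Read depth is coverage times exonic length, summed over a gene's forms, divided by its longest annotated form and the library's aligned gigabases. This measure and the sum over all claudins were chosen after seeing the data. The other alternatives were a block for the experiment, other scalings, filters, pseudocounts and sums of transcripts, and each library left out. The experiment number in the titles pairs the libraries. The deviations of same-numbered libraries correlated across genes with r = 0.17, which gives only 2 pairs to judge by.

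The members and gene lists were chosen with earlier results of these data known. All members are named, and in each other role every gene past the threshold or, where fewer than 3 passed, those with the smallest p until 3. Epcam, Elf3, Cldn3, Cldn5, Cldn17 and the marker genes were named after their values were seen. Motifs were searched in RefSeq promoters of GRCm38.p6, without conversion of the mm9 positions.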

Additional observations from a re-analysis of the deposited data

How the results depend on the processing

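Cldn4 and Crb3 kept their direction under all 14 alternatives, with log2 changes of 2.27 to 2.68 and 1.44 to 1.91. Each kept an adjusted p under 0.05 in 9 of them and lost it without a filter on low values (0.0674 and 0.0534) and without any 1 library (0.0515 to 0.0933 and 0.0548 to 0.116), where the lone library of a group is assumed to vary like the others. The count of called members, 2, thus became 0 without a filter and 0 to 0 without 1 library, while limma's unadjusted p was under 0.05 for 4 members without a filter and for 2 to 4 without 1 library.

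Over all genes 646 were called. This became 1422 with the experiment as a replicate block, 4 with no filter, 95 with annotated transcripts only, 315 with the most abundant transcript, 1262 without genes listed at 0, and 3 to 191 without 1 library. The count for other junction and polarity genes, 2, became 5 with the block, 0 with no filter (10 at an unadjusted p under 0.05), 1 with a minimum of 5 FPKM, 1 with a pseudocount of 0.1, 0 with annotated transcripts only, 1 with the most abundant transcript, 6 without genes listed at 0, 1 by read depth and 0 to 0 without 1 library (5 to 8 unadjusted). Median-of-ratios scaling gave 3. The count for regulators and adherens genes, 7, became 0 with no filter (12 unadjusted), 2 with annotated transcripts only, 4 with the most abundant transcript and 0 to 3 without 1 library (9 to 14 unadjusted). Beside the calls gained by Cxadr, Tjap1, Mpdz and Snai2 given above, and by Elf3 (higher) and Epcam (lower), the replicate block changed no call in these lists.

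Changes of sign occurred only for genes that did not pass. With annotated transcripts only the log2 change was 1.56 for F11r, -0.10 for Tjp1, -0.29 for Patj, 0.22 for Mpp5 and 0.61 for Prkci. With the most abundant transcript it was 0.40 for F11r, -0.026 for Cldn12, -0.20 for Patj, 0.22 for Mpp5, 0.43 for Prkci and -0.036 for Dlg1. By read depth it was 0.29 for F11r and 0.0093 for Mpp5. With median-of-ratios scaling it was 0.13 for Marveld2, 0.18 for Mpp5 and 0.037 for Mark3. With quantile normalization it was 0.22 for Marveld2 and 0.21 for Mpp5, and with a pseudocount of 0.1 it was 0.0097 for Marveld2. Without 1 library, values ran from -0.21 to 0.32 for Tjp1, -0.029 to 0.086 for Cldnd1, -0.20 to 0.27 for Cldn12, -0.30 to 0.28 for Marveld2, -0.27 to 0.38 for Jam2, -0.0010 to 0.35 for Patj, -0.15 to 0.30 for Lin7c, -0.18 to 0.17 for Mpp5, -0.0071 to 0.46 for Dlg1 and -0.36 to 0.012 for Mark3. The cause of these changes of sign was not tested. With 2 libraries a group and no read counts, small differences were not detectable.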
